A study of Saccharomyces cerevisiae with 5 samples.

Results

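The genes described here encode the aminoacyl-tRNA synthetases of budding yeast (Saccharomyces cerevisiae), the enzymes that load each transfer RNA with its amino acid, together with the synthetase cofactor ARC1. They were chosen as a named list of 32 genes and found by symbol in the platform annotation, where all 32 had 1 feature each among 5196 named genes. A value in at least 2 of 3 hybridizations was required, which 28 of the 32 met; over the whole array, 4172 named genes met it. The list holds 14 genes for enzymes of the cytosol, 4 genes that each supply both the cytosol and the mitochondria (ALA1, GRS1, HTS1 and VAS1), 13 genes for mitochondrial enzymes, and ARC1. Of the 28, 18 were cytosolic or shared, 9 were mitochondrial and the last was ARC1.

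A synthetase recognises 1 kind of amino acid and joins it to the matching tRNA, and the ribosome then reads the charged tRNA. Yeast translates in 2 compartments. The cytosolic enzymes serve the proteins made from nuclear genes, and the mitochondrial enzymes, also encoded in the nucleus and imported, serve the few proteins made inside the organelle. When charged tRNA runs short, uncharged tRNA activates the kinase Gcn2, and translation of the transcription factor Gcn4 rises.

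Exponentially growing cells, for which the labels name no strain or genotype, were held at 30 MPa and 25 °C for 16 h. The recovery cells were then returned to 0.1 MPa, grew for 2 h and were harvested, and their polyA RNA was labelled with Cy5. The comparison cells were harvested at decompression (0 h) and labelled with Cy3, so both groups had been through the same pressure treatment and no culture kept at atmospheric pressure throughout is part of the comparison. The 3 hybridizations of independent biological samples held both RNAs on each 2-colour spotted array, with the dyes in the same order, so that a dye effect and a change cannot be told apart.

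Values are log2 ratios, where 1 stands for a 2-fold difference. The labels do not name the numerator. Recovery over decompressed is only the likely direction, read from the Cy5 and Cy3 channels; with the opposite numerator, every "higher" or "lower" here would turn round. For hybridizations 1 and 2 a high power and a low power scan were averaged, and hybridization 3 had a single scan. Scans carried values for between 2089 and 5007 of 6336 features, with the fewest in hybridization 3 (33.0%). Because the RNA came from whole cultures, less transcript per cell and fewer cells with the transcript cannot be told apart. The number of hybridizations limits the precision of every value.

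The mitochondrial enzymes were measured less completely than the cytosolic ones. In hybridization 3, 17 of the 18 cytosolic or shared genes had a value and 0 of the 13 mitochondrial genes did. Among all genes and unnamed features measured in hybridizations 1 and 2, 44.9% also had a value in hybridization 3. The low power scans held values for 6 (hybridization 1) and 7 (hybridization 2) of the 13 mitochondrial genes and for 17 and 18 of the 18 cytosolic or shared ones. DIA4, for the seryl-tRNA synthetase assigned to mitochondria, had no value in any scan. MSD1 (aspartate), MST1 (threonine) and MSW1 (tryptophan) had a value in hybridization 2 alone, at -0.66, -0.95 and 0.05. The value of MSW1 is the mean of a high power scan at -0.56 and a low power scan at 0.66, the widest gap between scans of any member. Spot brightness is not part of the values analysed here, so its part in these gaps was not tested.

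The test of change took each gene's mean log2 ratio against 0 (limma, adjusted over all 1891 genes and unnamed features with 3 values). It called 27.2% of all genes, 15.1% higher and 12.2% lower in recovery. Of the 17 members it could test, 16 cytosolic or shared genes and ARC1, 1 rose and 1 fell. The median of the 17 means was -0.15, beside 0.09 over all genes tested. A second fit over all genes with at least 2 values, 4368 in number, called 27.4%, with 585 genes (13.4%) higher and 613 lower. It called 1 of the 28 members higher and 7 lower, with a median of -0.05, beside -0.01 over all genes in that fit. Its standard errors came almost wholly from the pooled variance and hardly followed a gene's own spread, so calls made only there are given below as such.

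**Figure D1:**
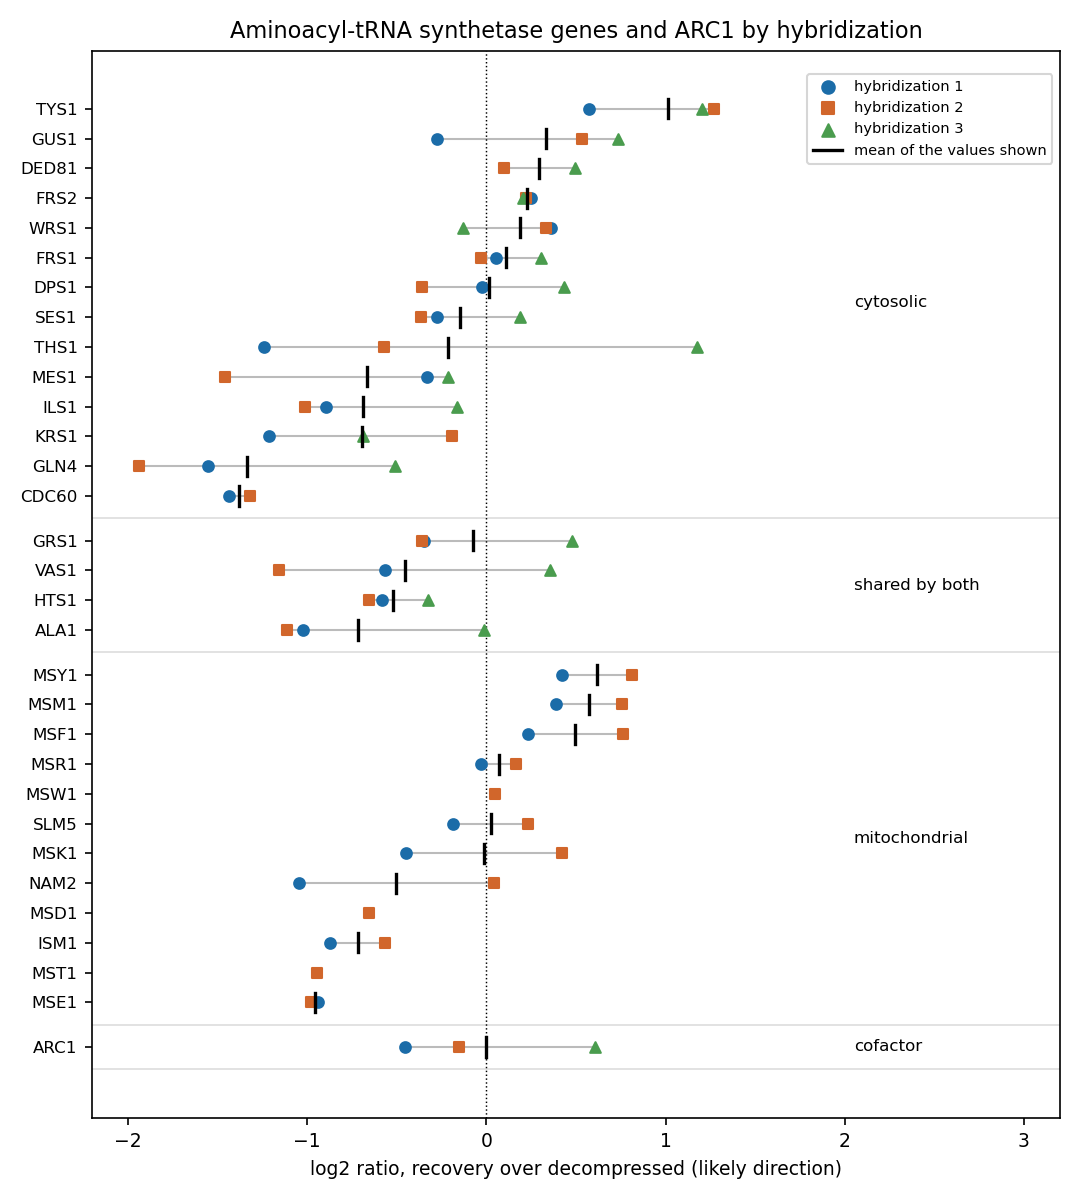
Log2 ratio of recovery over decompressed (horizontal axis, likely direction) of each measured member, by compartment. Symbols are the hybridizations, grey lines join a gene's values and black bars mark their mean; TYS1 is above 0 and GLN4 below 0 in all 3 hybridizations, while the mitochondrial genes have no value in hybridization 3.

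TYS1 (YGR185C), the cytosolic tyrosyl-tRNA synthetase, was the member that rose. Its log2 ratios were 0.57, 1.27 and 1.21 in hybridizations 1, 2 and 3. All 3 lay above 0, with hybridization 1 the lowest. The mean of 1.02 ± 0.38 (SD, n = 3) is a 2.02-fold difference, with a limma 95% interval from 0.48 to 1.55 and an adjusted p of 0.00928. Without hybridization 2 the mean was 0.89 and missed the threshold (limma adjusted p = 0.0724).

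GLN4 (YOR168W), the glutaminyl-tRNA synthetase, was the member that fell. Its log2 ratios were -1.55, -1.94 and -0.51. All were below 0, and hybridization 3 lay well above the other two. The mean of -1.34 ± 0.74 (SD, n = 3) is a 2.52-fold difference, with a limma 95% interval from -1.94 to -0.73 and an adjusted p of 0.00405. It passed without any 1 hybridization, at adjusted p values from 0.00627 to 0.0471 in limma. Yeast mitochondria have no glutaminyl-tRNA synthetase of their own and make their glutaminyl-tRNA by amidation, so GLN4 has no mitochondrial partner in the list.

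CDC60 (YPL160W), the cytosolic leucyl-tRNA synthetase, had no value in hybridization 3. It stood at -1.44 and -1.32 in hybridizations 1 and 2, and passed in the fit over at least 2 values (mean -1.38, limma adjusted p = 0.000106). Over the same hybridizations GLN4 was lower, at a mean of -1.75. After gene length and array position were both corrected over these 2 hybridizations it was at -0.51 and missed the threshold (limma adjusted p = 0.0623).

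ALA1, ILS1, KRS1 and MES1, for alanine, isoleucine, lysine and methionine, were below 0 in all 3 hybridizations; they missed the threshold over genes with 3 values and passed over genes with at least 2. Of 20 alternative fits, that one included, ALA1 passed in 10, ILS1 and KRS1 in 9 each and MES1 in 4. ALA1 was at -1.02, -1.11 and -0.01, and ILS1 at -0.89, -1.01 and -0.16. In both genes hybridization 3 was close to 0 and the other two near -1. KRS1 was at -1.21, -0.19 and -0.69, and MES1 at -0.33, -1.46 and -0.22. Here a single hybridization carried much of the mean, the first in KRS1 and the second in MES1. The 4 means ran from -0.72 to -0.67. Their limma adjusted p values were 0.0616, 0.058, 0.0596 and 0.0884 over genes with 3 values, and 0.0196, 0.0251, 0.0234 and 0.0308 over those with at least 2. With gene length and array position both corrected, the means over 3 values were -0.45 in ALA1 and -0.49 in KRS1. In ILS1 and MES1 they were nearer 0, at -0.17 and -0.13. None of the 4 passed there (limma adjusted p from 0.0589 to 0.609).

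The other 3 shared genes make a cytosolic and a mitochondrial enzyme from 1 gene through different start sites, as ALA1 does. HTS1, for histidine, was at -0.58, -0.65 and -0.33, the narrowest of these, with a mean of -0.52 ± 0.17 (SD, n = 3) that did not pass (limma adjusted p = 0.119). VAS1, for valine, was at -0.57, -1.16 and 0.36, and GRS1, for glycine, at -0.35, -0.36 and 0.48. All 4 shared genes were below 0 in hybridizations 1 and 2, as were 36.3% of all genes measured in both, and all 4 were highest in hybridization 3.

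The remaining cytosolic genes stayed near 0 or changed sign between hybridizations, and none passed in either fit. FRS1 and FRS2 encode the beta and alpha subunits of phenylalanyl-tRNA synthetase. FRS2 was at 0.25, 0.22 and 0.20, the smallest spread of any member with 3 values, and FRS1 at 0.06, -0.03 and 0.31. Their limma 95% intervals, -0.28 to 0.73 and -0.40 to 0.62, leave room for differences in either direction. WRS1 (tryptophan), DPS1 (aspartate) and SES1 (serine) had means between -0.15 and 0.19, and DED81 (asparagine), measured in hybridizations 2 and 3, had values of 0.10 and 0.49.

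THS1, the threonyl-tRNA synthetase gene, varied most among members with 3 values. It was at -1.24, -0.57 and 1.18, so the hybridizations disagreed in sign (SD 1.25). Its group on the array holds 132 features, and group medians cover only those with a value, 33.0% of features array-wide in hybridization 3. The median of that group in hybridization 3 was 1.03, the highest of 48 such groups. In hybridizations 1 and 2 it was -0.44 and -0.37. Relative to the median of its group, THS1 was at -0.80, -0.20 and 0.15.

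Arc1 holds the methionyl and glutamyl enzymes, Mes1 and Gus1, in a complex and helps them bind tRNA. All 3 genes were highest in hybridization 3, as were 12 of the 16 cytosolic or shared genes with 3 values and 28.1% of all genes. None of the 3 was called over genes with 3 values. ARC1 was at -0.46, -0.15 and 0.60, with a limma 95% interval of its mean from -0.56 to 0.56. GUS1 was at -0.27, 0.53 and 0.73, and MES1 was below 0 throughout, with its lowest value in hybridization 2.

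Among the 9 mitochondrial genes with 2 values, 1 passed in the fit over at least 2 values, which called 27.4% of all genes. MSE1 (YOL033W), for glutamate, was at -0.94 and -0.98, both from high power scans only, and its mean of -0.96 had a limma adjusted p of 0.00971. It remained past the threshold in each of 6 other fits that could include it, with adjusted p values from 0.00577 to 0.048 in limma. All of these fits rest on the same 2 values and on variance pooled over genes. With length and position corrected over hybridizations 1 and 2, the mean of MSE1 was -0.53 (limma adjusted p = 0.048). MSY1 (tyrosine) was the highest of the class at 0.42 and 0.81, followed by MSM1 (methionine) at 0.39 and 0.76 and MSF1 (phenylalanine) at 0.23 and 0.76. These 3 were above 0 in both hybridizations, as were 36.7% of all genes, and did not pass in that fit; MSM1 and MSY1 passed over hybridizations 1 and 2 once gene length was corrected, where 10.8% of all genes were called higher, and did not pass there with position, or with length and position, corrected. ISM1 (isoleucine) was below 0 in both, at -0.87 and -0.57. NAM2 (leucine) was at -1.05 and 0.04, and MSK1 (lysine) at -0.45 and 0.42. SLM5 (asparagine) was at -0.18 and 0.23, and MSR1 (arginine) at -0.03 and 0.17. All 4 changed sign between the hybridizations, and none passed.

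Compartments can be set side by side only in hybridizations 1 and 2. The cytosolic or shared genes had a median log2 ratio of -0.35 in hybridization 1 and -0.36 in hybridization 2, and the 9 mitochondrial genes of -0.18 and 0.23. The cytosolic minus the mitochondrial median was -0.16 and -0.59. The ranges of the classes overlapped in both hybridizations. Averaged over hybridizations 1 and 2, the 17 cytosolic or shared genes ran from -1.75 (GLN4) to 0.92 (TYS1) with a median of -0.62, and the mitochondrial genes from -0.96 (MSE1) to 0.62 (MSY1) with a median of 0.02. Without the 4 shared genes the cytosolic median was -0.32. Over hybridizations 1 and 2 alone, limma called 25.0% of all genes, 12.1% higher and 12.9% lower. It called 9 of the 27 members measured in both, 1 higher and 8 lower, VAS1 and THS1 among the lower. Standard errors in this fit also came mostly from the pooled variance (prior degrees of freedom 24.4). They were 0.27 for FRS2 and 0.28 for KRS1, although KRS1 differed far more between the 2 hybridizations. With length corrected, 8 members were called (23.9% of all genes), 3 higher and 5 lower (10.8% and 13.1% of all genes). With position it was 7 (27.8%), 0 higher and 7 lower (13.7% and 14.1%). With both it was 5 (26.7%), 1 higher and 4 lower (11.8% and 14.9%). Centring on the median gave 10 (26.4%), 1 higher and 9 lower (12.7% and 13.7%). No p is given for the difference between the classes, since genes of a list are not replicates and the direction rests on 2 hybridizations.

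Array position differed between the classes in hybridization 2. There, 7 of the 9 mitochondrial genes lay in groups of features whose median exceeded 0.3, and 6 of the 18 cytosolic or shared genes (ALA1, CDC60, GLN4, ILS1, MES1 and THS1) lay in groups whose median was below -0.3. The mitochondrial MSE1 also lay in a group below -0.3, and the cytosolic GUS1 and TYS1 in groups above 0.3. MSF1, MSK1, NAM2 and SLM5 shared 1 group, and TYS1, MSM1 and MSY1 another. With each group centred, the difference between the class medians went from -0.16 to -0.25 in hybridization 1, so it widened, and from -0.59 to -0.27 in hybridization 2. With gene length corrected as well it was -0.18 and -0.07.

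**Figure D2:**
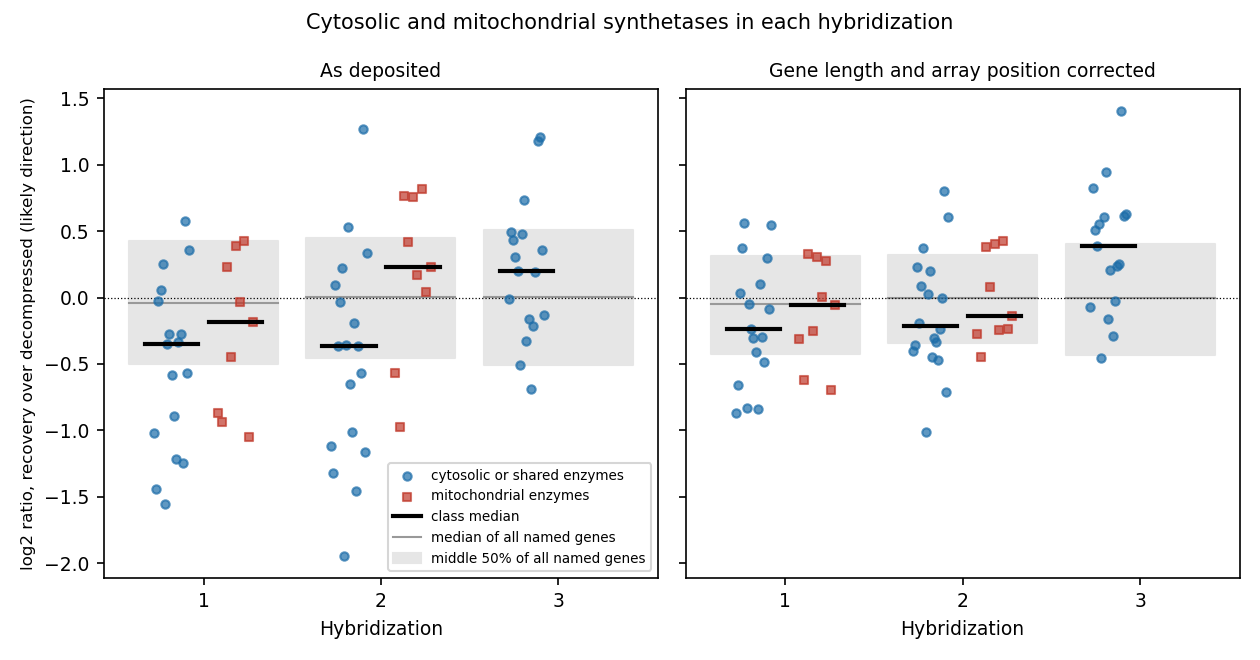
Log2 ratios of cytosolic or shared (circles) and mitochondrial (squares) synthetase genes in each hybridization, as deposited and after correction for gene length and array position. Black bars are class medians, grey lines and boxes the median and middle 50% of all named genes; the classes overlap in hybridizations 1 and 2, and the cytosolic median is above 0 in hybridization 3 in both panels.

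The median of the cytosolic or shared genes was 0.20 in hybridization 3, against -0.35 and -0.36 in the other two. Of the 16 with 3 values, 12 were highest in hybridization 3, as were 28.1% of all genes tested, and 2 (FRS2 and WRS1) were lowest there, as were 45.5% of all genes. The same sign in all 3 hybridizations was found for 8 of the 16 and for 55.7% of all genes; 6 were below 0 throughout, beside 23.8% of all genes, and 2 above 0, beside 31.9%. Another 5 (DPS1, GRS1, SES1, THS1 and VAS1) were below 0 in hybridizations 1 and 2 and above 0 in hybridization 3. The share of all genes with that pattern was not counted, so whether 5 of 16 is unusual is not known. The median gap between hybridization 3 and the mean of the others was 0.61 for these 16 genes and -0.14 for all 1891. After correction for gene length and position it was 0.50 and 0.01. ARC1 was also highest in hybridization 3. For those 5 genes and ARC1, the mean over 3 hybridizations joins values of opposite sign.

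Synthetase genes are long, and the ratio fell with length over the whole array. Of the 32 genes, 29 were longer than the median named gene (1251 bases), with GLN4 at 2430, CDC60 at 3273 and TYS1 at 1185. Across the 17 cytosolic or shared genes measured in hybridizations 1 and 2, the mean log2 ratio of both fell with length (Spearman rho = -0.82). The 9 mitochondrial genes gave -0.52 and 4022 named genes -0.39; these are descriptions across genes that share arrays, labelling and scans. Within the cytosolic class, hybridization 1 gave -0.70, hybridization 2 gave -0.74 and hybridization 3 gave -0.17.

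**Figure D3:**
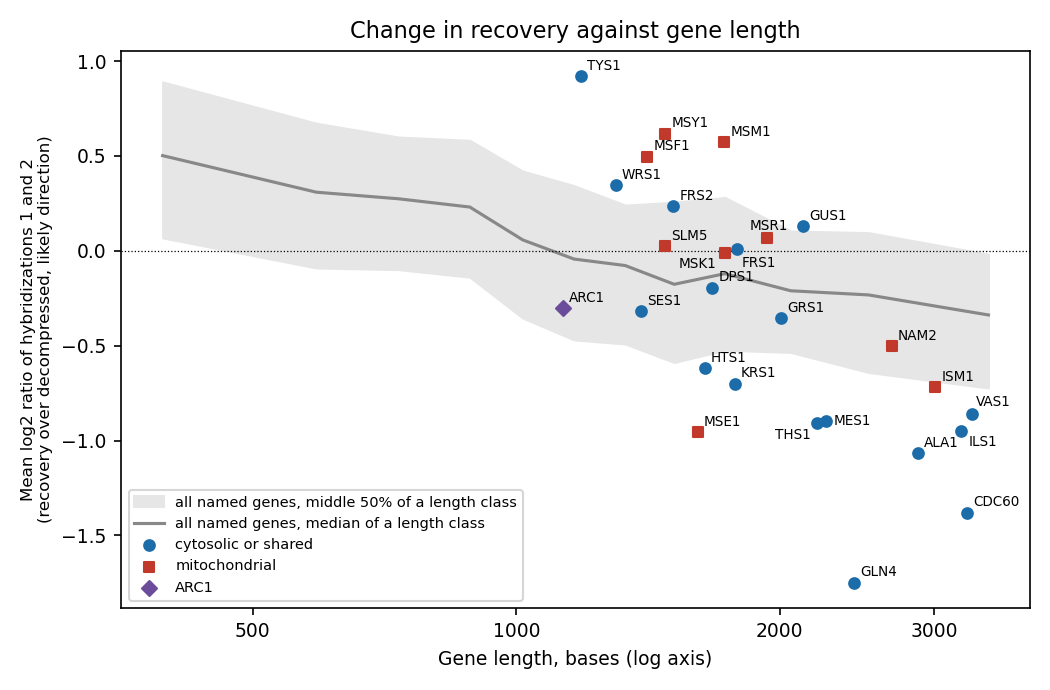
Mean log2 ratio of hybridizations 1 and 2 against gene length (log axis) for synthetase genes and ARC1, over the median (line) and middle 50% (band) of all named genes in classes of similar length. GLN4 and CDC60 lie below the band and TYS1 above it. Other members also lie outside the band, among them ALA1 and MES1 below it and MSY1 and MSM1 above it.

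With the trend on length removed in each hybridization, GLN4 was at -1.10 (limma adjusted p = 0.0143) and TYS1 at 1.05 (adjusted p = 0.00763), and both stayed called, in a fit that called 21.6% of all genes, 9.93% higher and 11.6% lower. With length and position both corrected, GLN4 was at -0.76 (limma adjusted p = 0.00824) and TYS1 at 0.83 (adjusted p = 0.0135). In that fit FRS2 and WRS1 were called higher too, where 31.0% of all genes were called, 13.8% higher and 17.2% lower. With position alone corrected, ALA1 and KRS1 were called lower beside GLN4 and TYS1, with 32.9% of all genes called. The median of the cytosolic or shared genes went from -0.18 to -0.02 after the correction for length. It was -0.26 with position corrected and -0.07 with both. Over hybridizations 1 and 2 alone it went from -0.62 to -0.47 with length corrected. The median over all genes with 3 values went from 0.09 to 0.03 with length corrected.

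The synthetases fall into 2 catalytic classes with unrelated folds. Among cytosolic or shared genes in hybridizations 1 and 2, the 8 of class I had a median of -0.88 and a median length of 2343 bases, and the 9 of class II with values in both a median of -0.35. The 10 class II genes with at least 2 values had a median length of 1725 bases. After correction for gene length and position the medians were -0.27 and -0.24. Both GLN4 and TYS1 belong to class I.

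For 8 pairs of a cytosolic and a mitochondrial gene for the same amino acid, both had values in hybridizations 1 and 2 (13 pairs listed; MSF1 stands in 2 pairs, since the cytosolic enzyme has 2 subunits). The cytosolic gene was lower in both hybridizations in 5 of these pairs and higher in both in 2. Proline and arginine are not counted, since their cytosolic genes YHR020W and YDR341C lie outside the list. YHR020W was above the mitochondrial AIM10 in both hybridizations. YDR341C was below MSR1 in hybridization 1 and above it in hybridization 2. Averaged over both hybridizations the widest gap was for methionine, where the log2 difference of MES1 minus MSM1 was -0.72 and -2.22. For leucine, CDC60 minus NAM2 was -0.39 and -1.36, and for lysine, KRS1 minus MSK1 was -0.76 and -0.61. The opposite held for glutamate, where GUS1 was above MSE1 by 0.66 and 1.51. For tyrosine both genes were above 0 in both hybridizations, with TYS1 over MSY1 by 0.15 and 0.46, and for isoleucine both were below 0. FRS2 and MSF1 were also both above 0, and the sign of their difference changed between hybridizations. With length and position corrected, the cytosolic gene was lower in both hybridizations in 3 pairs and higher in both in 2. MES1 minus MSM1 was then -0.21 and -0.87, and CDC60 minus NAM2 was 0.04 and -0.12. KRS1 minus MSK1 was -0.59 and -0.42, and GUS1 minus MSE1 was 0.38 and 0.64.

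**Figure D4:**
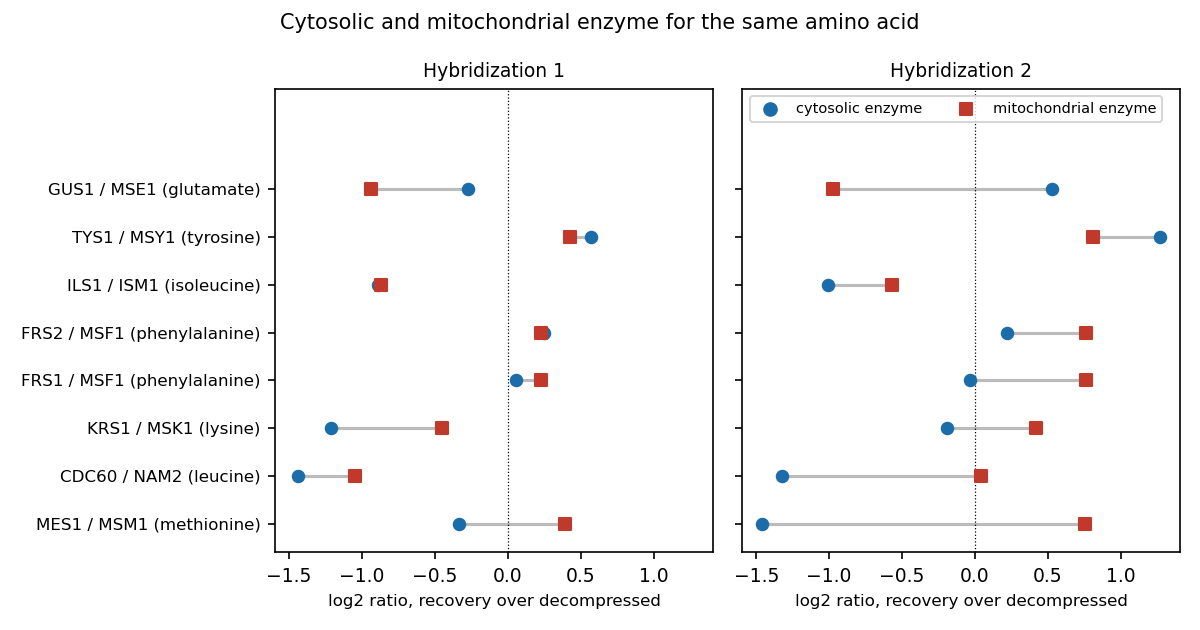
Log2 ratio (horizontal axis) of the cytosolic (circle) and mitochondrial (square) synthetase gene for the same amino acid in hybridizations 1 and 2, for the 8 pairs of listed genes measured in both. Order is by the mean difference, from GUS1 above MSE1 at the top to MES1 below MSM1 at the bottom.

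Other genes that handle tRNA or sense its charging gave 1 riser and 2 genes that fell among 15 tested (28 listed, 25 on the array), beside 27.2% of all genes called, with a median of 0.11, beside 0.09 over all genes. The fit over at least 2 values called 2 of 24 higher and 5 lower, beside 27.4% of all genes, with a median of -0.09. Those called only in the latter of these fits were DTD1, for the enzyme that removes D-amino acids from tRNA (higher), and AIM10, CCA1, which adds the CCA end to tRNA, and GCN20, an activator of Gcn2 (lower). GCN20 had no value in hybridization 1 and was at 0.03 and -1.55 in hybridizations 2 and 3. In hybridization 3 the median over the measured features of its group was -0.67, the lowest of 48 groups. The riser was RPM2, the protein subunit of the mitochondrial RNase P that trims the 5′ ends of tRNA in the organelle, at 0.70, 1.04 and 1.44 (limma adjusted p = 0.00691). It was above 0 in every hybridization. GCD6 and GCD2 fell; both encode subunits of eIF2B, the exchange factor that the Gcn2 pathway inhibits. GCD6 was at -1.21, -1.29 and -0.83 and passed without any 1 hybridization, and GCD2 at -1.13, -0.29 and -1.50. Without hybridization 1 GCD2 had a limma adjusted p of 0.104, and without hybridization 3 of 0.0994. GCN4 was at -0.17, -0.47 and -0.84, below 0 throughout without a call (limma adjusted p = 0.155).

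Of the synthetases outside the list, YDR341C, the cytosolic arginyl enzyme, was at -0.28, 0.57 and 0.54 and YHR020W, the prolyl enzyme, at -0.51, -0.45 and 0.16, neither with a call. AIM10, the mitochondrial prolyl enzyme, was at -0.57 and -1.09 with no value in hybridization 3, and passed in the fit over at least 2 values (limma adjusted p = 0.0278). TEF1 and TEF2, which encode the same elongation factor that carries charged tRNA to the ribosome and whose signals can mix on such an array, had means of -0.10 and -0.55 and did not pass.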

How the data were processed

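Each deposited file gives log2 ratios for 1 scan. According to the authors' protocols in the labels, total RNA came from hot phenol extraction, reverse transcription from oligo dT built in the Cy dyes, and the authors kept unflagged spots (flag 0) for LOWESS normalization. The base was read from the values, since the lowest is the log2 of 0.01. The scanner, the numerator and the genome build of the array design are not given in the sources used here.

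Features were named from the platform annotation (5297 of 6336) and given gene lengths from the RefSeq gene table of assembly R64. The lengths span the gene, and 97.3% are multiples of 3. Scans of a hybridization were averaged, then features of a gene. limma 3.58.1 (R 4.3.3; lmFit with an intercept, eBayes, Benjamini-Hochberg adjustment, threshold 0.05) tested the mean against 0 over 1891 genes and features with 3 values (prior degrees of freedom 12.2) and, as an alternative, over 4368 with at least 2 (897). Length was corrected by loess (span 0.75) on log2 length in each hybridization, and position by centring each of 48 groups of 132 consecutively numbered features. The steps were tested on simulated data. Alternatives were single scans, all 5 scans with a random block for hybridization, centring, a robust prior, array weights, a plain one-sample test and each hybridization left out. The members and lists were chosen with earlier results of these data known. Each member called in either fit, the highest and lowest of each class, and each pair with both genes measured are given in full, and the other members by value or range.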

Additional observations from a re-analysis of the deposited data

How the results depend on the processing

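GLN4 kept its direction in all 20 alternatives and its call in 19, and TYS1 its direction in 20 and its call in 16; the plain one-sample test ended both calls (adjusted p = 0.271 and 0.215), as it ended every call on the array. TYS1 also missed the threshold over hybridizations 1 and 2 with position corrected (0.59) and with length and position corrected (0.55), and without hybridization 2. The 2 members called became 8 over genes with at least 2 values, 9 over hybridizations 1 and 2 alone, 4 with 5 scans and the hybridization as a random block (6 over genes with at least 2 values), 5 after centring, 4 with position corrected, 4 with length and position corrected, 6 with array weights, and 0 in the plain one-sample test (3 of the 17 at an unadjusted p under 0.05). Leaving out 1 hybridization gave from 1 to 6, the most without hybridization 3. Over hybridizations 1 and 2, in alternatives chosen after seeing the data, the count was 8 with length corrected, 7 with position, 5 with both and 10 after centring. The count over all genes was 515 of 1891. It was 1198 of 4368 with at least 2 values and 1052 of 4213 over hybridizations 1 and 2 alone. With the random block it was 524, or 909 of 4368 with at least 2 values. Centring gave 510, position corrected 623, length and position corrected 568 of 1832, and array weights 646. The plain test gave 0 (429 at an unadjusted p under 0.05), and leaving out 1 hybridization gave from 240 to 427.

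The cytosolic median of -0.18 was -0.62 over hybridizations 1 and 2, and from -0.49 to -0.03 with 1 left out. The medians with 1 left out cover the 16 genes with 3 values, and the -0.62 covers 17 genes, CDC60 included. The mitochondrial median of 0.02 ran from -0.18 to 0.23 with 1 left out. Their difference of -0.20 over all values, which sets hybridization 3 of one class against none of the other, was -0.64 over hybridizations 1 and 2, and from -0.51 to 0.15 with 1 left out. The 0.15, without hybridization 2, sets hybridizations 1 and 3 of the cytosolic class against hybridization 1 of the mitochondrial class. After both corrections the difference was 0.03 over all values, with the same mismatch, and -0.14 over hybridizations 1 and 2. The cause of these shifts was not tested. Each ratio already sets the recovery RNA against the decompressed RNA of the same array, so no further pairing was added.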
